A study of Homo sapiens with 24 samples.

Results

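FOXO transcription factors, the insulin and IGF receptors and their IRS adaptors, and 3 genes that FOXO factors are known to switch on were followed through polysome profiling of 2 human lung cancer cell lines after RICTOR knockdown. The 10 genes were chosen by name: FOXO1, FOXO3 and FOXO4, INSR and IGF1R, IRS1 and IRS2, and CCNG2, TXNIP and BCL6. Each matched a single gene ID in a table of 60666 genes, and all 10 passed the filter on low counts in every fit. The 8 groups of 3 libraries were H460 siRIC polysomal, H460 siNT polysomal, H460 siRIC total and H460 siNT total RNA, and the same 4 groups of A549. H460 is a large cell lung carcinoma line and A549 a lung adenocarcinoma line, and all libraries carry the genotype label wild type. siRIC is the transfected siRNA against RICTOR and siNT the control siRNA. Each line stands for a single tumour, and the siRNA sequences, the dose and the time after transfection were not stated in the sources used here. Both fractions came from cells kept in RPMI with serum, so insulin or IGF was not added or withdrawn as a treatment.

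When insulin or IGF binds its receptor, the receptor phosphorylates IRS adaptors, which recruit PI3K and thereby activate AKT. mTORC2, whose defining subunit is RICTOR, phosphorylates AKT, and AKT phosphorylates FOXO factors so that they are held in the cytoplasm. When AKT activity falls, FOXO factors enter the nucleus and can raise the transcription of INSR, IRS2, IGF1R and FOXO1 itself, a negative feedback described in several tissues, together with brakes on growth such as CCNG2, TXNIP and BCL6. FOXO activity is set largely by phosphorylation and localization, which were not measured here.

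All siRIC libraries held less RICTOR than the siNT libraries of the same line and fraction, for example 5.65, 7.23 and 6.38 CPM in H460 siRIC total RNA against 18.7, 18.97 and 17.9 CPM in H460 siNT total RNA (numbers 1, 2 and 3 in order; CPM is the count scaled to 1000000 per library). The number is the replicate number, which the labels give as a batch, and values of 3 libraries are listed in this order throughout. In bulk RNA, fewer cells with a transcript and less of it per cell cannot be told apart. Library totals were 19087204 to 26550160 estimated counts. Whether a group's libraries stem from separate cultures is not in the labels, and the p-values cover the spread among these libraries alone. Polysomal library 3 of both H460 groups and A549 siRIC polysomal library 1 were treated as libraries that stood apart from the others of their groups. The measure behind this choice is not given here. Summed epithelial markers reached 1964 to 7556 CPM in H460, where CDH1 was at 0 in all 12 libraries, and 4535 to 18513 CPM in A549. Summed fibroblast markers, all of them detected, were at 63.5 to 174 CPM in H460 and 5.11 to 11.2 CPM in A549, and their part in the differences between the lines was not tested.

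Knockdown of RICTOR was followed by no called change in any of the 10 genes. Called means an adjusted p below 0.05 in edgeR's quasi-likelihood test, with Benjamini-Hochberg adjustment over all genes tested. In H460, 0 of 10 were called in polysomal RNA and 0 of 10 in total RNA, where the test called 0% of the 14586 genes in both fractions. RICTOR itself was among the genes not called in H460. Its log2 fold change in polysomal RNA was −1.90 ± 0.31 (SE, unadjusted p = 4.25e-05, adjusted p = 0.620, edgeR). In H460 total RNA it was −1.52 ± 0.30 (unadjusted p = 2.52e-04, edgeR). RICTOR was called in 3 of 8 alternative fits of H460 polysomal RNA and 4 of 8 of total RNA. Of 12 fits that left out a library, 0 and 1 called it. In A549, 0 of 10 were called in polysomal RNA, where 0.676% of 15396 genes were called, and 0 of 10 in total RNA, where 0.325% were called. RICTOR was called lower there, at −1.49 ± 0.23 (adjusted p = 0.00700) in polysomal and −1.38 ± 0.23 (adjusted p = 0.0159) in total RNA (edgeR). In the fit without a block, unadjusted p-values below 0.05 came from 1 gene in each of these comparisons: BCL6 in H460 polysomal RNA, FOXO4 in H460 total RNA, and IRS2 in both fractions of A549. DESeq2 also called 0 of the 10 genes in each of the 4 comparisons, and so did the fit with the number as a block. Over all genes, an unadjusted p below 0.05 was reached by 252 genes in H460 polysomal RNA and 167 in H460 total RNA, and DESeq2 called 1 and 4 genes there.

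The directions of the 10 genes leaned upward. Fitted changes were above 0 for 10 of the 10 genes in H460 polysomal RNA, 9 in H460 total RNA, 7 in A549 polysomal RNA and 9 in A549 total RNA, while 54.8%, 54.1%, 52.5% and 51.5% of all genes tested were above 0. The median log2 fold changes of the 10 genes, siRIC over siNT, were 0.18 and 0.16 in H460 polysomal and total RNA and 0.062 and 0.10 in A549, against medians between 0.0070 and 0.021 over all genes. These 10 genes share libraries and were chosen with results known, so no test was made of the lean. In the fit without a block, the widest 95% intervals were those of TXNIP. They allow changes of more than 1 log2 unit in both lines. With the replicate number as a block, the TXNIP intervals were −0.30 to 0.67 and −0.24 to 0.72 in H460 polysomal and total RNA. In A549 the block gave TXNIP intervals of −0.94 to 0.53 and −0.56 to 0.94.

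**Figure D1:**
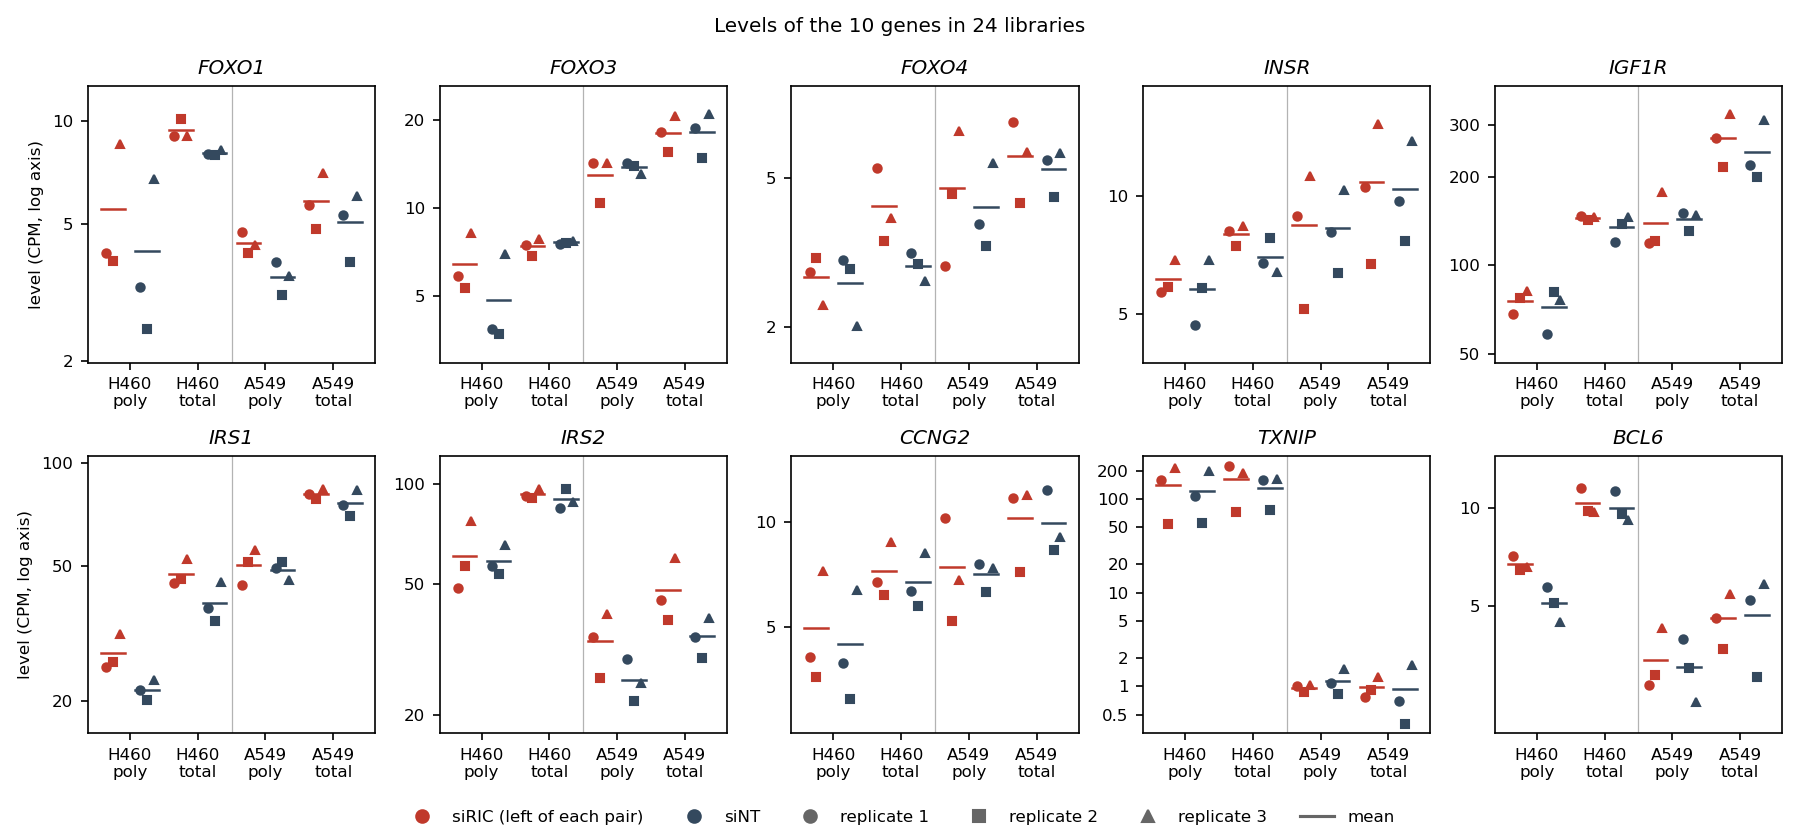
Level of each gene in CPM, on a log axis with its own range per gene, in the 24 libraries: H460 polysomal, H460 total, A549 polysomal and A549 total RNA, siRIC in red left of siNT in dark blue, with a marker shape for each replicate number and a bar for the mean of 3. TXNIP lay between 53.7 and 226 CPM in every H460 library and at or below 1.71 CPM in every A549 library.

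FOXO1, the FOXO factor best known as a target of insulin signaling in liver, was slightly higher with siRIC in all 12 pairs of libraries of equal number. FOXO1 had 4.12, 3.93 and 8.57 CPM in H460 siRIC polysomal RNA, against 3.29, 2.48 and 6.78 CPM in H460 siNT polysomal RNA. Total RNA of H460 held 9.02, 10.1 and 9.04 CPM with siRIC, against 7.99, 7.97 and 8.22 CPM with siNT. Without overlap, the 3 siRIC libraries of H460 total RNA lay above the 3 siNT libraries, while in polysomal RNA library 3 was the highest of both groups and the groups overlapped. In A549 the polysomal level was 4.75, 4.14 and 4.36 CPM with siRIC, against 3.89, 3.11 and 3.53 CPM with siNT. The A549 total level was 5.70, 4.84 and 7.06 CPM with siRIC, against 5.33, 3.88 and 6.04 CPM with siNT. In A549 the polysomal groups did not overlap and the total groups did. The share of all genes whose groups did not overlap is not given here, for this or the other comparisons. The log2 fold changes were 0.40 ± 0.37 and 0.23 ± 0.35 in H460 polysomal and total RNA and 0.34 ± 0.20 and 0.22 ± 0.20 in A549 (SE, n = 3 per group). None was called, with adjusted p-values from edgeR of 1 in both H460 comparisons and of 0.519 and 1 in A549. Over both lines the mean change was 0.36 ± 0.21 in polysomal RNA, with a 95% interval of −0.078 to 0.81 and an adjusted p of 0.852, and 0.21 ± 0.21 in total RNA. Of the 16507 genes tested in both lines, 236 (1.43%) were higher with siRIC in all 12 pairs, and FOXO1 is 1 of these, although its change was not called in any fit. FOXO1 maps to GRCh38 chromosome 13, 40555667 to 40666641.

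FOXO3, the most widely studied relative of FOXO1 in stress resistance and longevity (chromosome 6, 108559825 to 108684774), was not called with siRIC either. FOXO3 had 5.84, 5.30 and 8.17 CPM in H460 siRIC polysomal RNA, against 3.84, 3.69 and 6.94 CPM in H460 siNT polysomal RNA. Total RNA of H460 held 7.46, 6.83 and 7.82 CPM with siRIC, against 7.54, 7.59 and 7.71 CPM with siNT. The H460 polysomal groups overlapped only through library 3 of siNT, and the H460 total groups overlapped. A549 polysomal RNA held 14.3, 10.4 and 14.2 CPM with siRIC, against 14.2, 13.9 and 13.1 CPM with siNT. The A549 total level was 18.2, 15.5 and 20.6 CPM with siRIC, against 18.8, 14.8 and 20.9 CPM with siNT. Both pairs of A549 groups overlapped. The log2 fold changes were 0.41 ± 0.27 and −0.040 ± 0.26 in H460 polysomal and total RNA and −0.080 ± 0.16 and 0.00037 ± 0.16 in A549, none of them called. A near-identical copy, FOXO3B, was counted at 0.801 to 4.65 CPM in H460 and 2.22 to 10.3 CPM in A549. How salmon estimates were divided between the 2 loci cannot be read from the table, so the FOXO3 level is uncertain. With both counts summed, a choice made after seeing the data, the changes with siRIC were 0.31 ± 0.26 and 0.099 ± 0.25 in H460 polysomal and total RNA and −0.098 ± 0.14 and 0.024 ± 0.14 in A549.

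FOXO4, an X-linked member of the family (chromosome X, 71095851 to 71103532), was the FOXO factor with the largest fitted change, in H460 total RNA. It had 5.33, 3.40 and 3.91 CPM in H460 siRIC total RNA, against 3.16, 2.94 and 2.65 CPM in H460 siNT total RNA. The groups did not overlap, and library 1 of siRIC was the highest. The log2 fold change was 0.54 ± 0.25 with an unadjusted p of 0.0494 and an adjusted p of 1 from edgeR. In H460 polysomal RNA FOXO4 ranged from 2.28 to 3.06 CPM with siRIC and from 2.01 to 3.01 CPM with siNT, a change of 0.061 ± 0.26. In A549 it ranged from 2.90 to 6.70 CPM in siRIC polysomal RNA, against 3.30 to 5.48 CPM in siNT polysomal RNA, and the total levels of 4.30 to 7.06 and 4.46 to 5.82 CPM overlapped as well.

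Among the receptors, INSR, the insulin receptor (chromosome 19, 7112265 to 7294414), had log2 fold changes with siRIC between 0.041 and 0.20 in the 4 comparisons. Its levels were 8.14, 7.46 and 8.41 CPM in H460 siRIC total RNA, against 6.77, 7.83 and 6.41 CPM in H460 siNT total RNA, and these groups overlapped. In A549 the libraries of one group differed more than the groups did: total RNA held 10.6, 6.72 and 15.3 CPM with siRIC, against 9.76, 7.68 and 13.9 CPM with siNT. Library 2 was the lowest and library 3 the highest in both of these groups, and the same order held in A549 polysomal RNA. Without a block, the 95% intervals of the INSR changes were −0.36 to 0.53 and −0.24 to 0.64 in H460 polysomal and total RNA. In A549 they were −0.60 to 0.68 and −0.56 to 0.69. With the replicate number as a block, they were −0.31 to 0.50 and −0.19 to 0.59 in H460. The block gave −0.30 to 0.30 and −0.26 to 0.32 in A549.

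IGF1R, the receptor of IGF1 and IGF2 (chromosome 15, 98648539 to 98964530), was not called with siRIC. IGF1R had 68.2, 77.5 and 81.8 CPM in H460 siRIC polysomal RNA, against 58.3, 80.9 and 76.4 CPM in H460 siNT polysomal RNA. Total RNA of H460 held 148, 142 and 147 CPM with siRIC, against 120.3, 138 and 146 CPM with siNT. In H460 total RNA the siRIC libraries lay close together and within or just above the siNT range, and the polysomal groups overlapped. Polysomal RNA of A549 had 119, 121 and 178 CPM with siRIC, against 151, 131 and 148 CPM with siNT. The A549 total level was 271, 217 and 327 CPM with siRIC, against 219, 199 and 313 CPM with siNT. The A549 groups overlapped in both fractions, with library 3 of total RNA the highest under both siRNAs. The changes were 0.078 ± 0.18 and 0.12 ± 0.18 in H460 polysomal and total RNA and −0.040 ± 0.19 and 0.16 ± 0.19 in A549. The annotated noncoding genes IRAIN and BCL6-AS1 overlap IGF1R and BCL6, and the sources used here do not give the strand setting of the counting, so reads of these partners cannot be told apart from those of IGF1R and BCL6.

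Neither of the adaptors IRS1 and IRS2, which link the activated receptors to PI3K, was called with siRIC. IRS1 had 25.1, 26.1 and 31.6 CPM in H460 siRIC polysomal RNA, against 21.5, 20.1 and 23.04 CPM in H460 siNT polysomal RNA. Total RNA of H460 held 44.3, 45.6 and 52.3 CPM with siRIC, against 37.5, 34.4 and 44.6 CPM with siNT. The polysomal groups of H460 did not overlap, with all siRIC libraries above all siNT libraries, and the total groups overlapped through library 3 of siNT. The A549 polysomal level was 43.7, 51.1 and 55.6 CPM with siRIC, against 49.2, 51.3 and 45.2 CPM with siNT. The A549 total level was 81.05, 78.5 and 83.9 CPM with siRIC, against 75.2, 70.1 and 83.5 CPM with siNT. The A549 groups overlapped in both fractions. IRS1 (chromosome 2, 226731312 to 226799820) had log2 fold changes of 0.36 ± 0.17 and 0.29 ± 0.17 in H460 polysomal and total RNA, with unadjusted p-values of 0.0529 and 0.103 and adjusted p-values of 1 from edgeR, and of 0.052 ± 0.13 and 0.095 ± 0.13 in A549.

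IRS2, the adaptor whose gene is a textbook FOXO target in liver (chromosome 13, 109752695 to 109786583), was the member with the largest fitted change in A549. IRS2 had 48.4, 56.4 and 77.3 CPM in H460 siRIC polysomal RNA, against 56.4, 53.6 and 65.2 CPM in H460 siNT polysomal RNA. Total RNA of H460 held 91.9, 90.8 and 96.9 CPM with siRIC, against 84.9, 96.9 and 88.4 CPM with siNT. In H460 the siRIC and siNT ranges overlapped in both fractions. In A549 polysomal RNA it was at 34.5, 25.9 and 40.4 CPM with siRIC, against 29.5, 22.1 and 25.03 CPM with siNT. The A549 total level was 44.6, 38.8 and 59.8 CPM with siRIC, against 34.6, 29.9 and 39.4 CPM with siNT. In A549 polysomal RNA 2 of the 3 siRIC libraries lay above the whole siNT group and library 2 lay within it. The same was seen in A549 total RNA, where siRIC library 2 lay just below siNT library 3. The log2 fold changes in A549 were 0.40 ± 0.18 in polysomal RNA (unadjusted p = 0.0457, adjusted p = 0.383, edgeR) and 0.47 ± 0.18 in total RNA (unadjusted p = 0.0210, adjusted p = 0.549). With the replicate number as a block, the polysomal change in A549 was 0.38 ± 0.13 (unadjusted p = 0.00860, adjusted p = 0.113, edgeR). The total change there was 0.46 ± 0.13 (unadjusted p = 0.00222, adjusted p = 0.0937, edgeR), and neither was called. Without the block, the H460 changes were 0.061 ± 0.19 and 0.056 ± 0.19. The difference in response, H460 minus A549, was −0.34 ± 0.27 in polysomal RNA and −0.41 ± 0.27 in total RNA, with adjusted p-values of 1.00 (edgeR, 24 libraries).

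Of the FOXO target genes, CCNG2, which encodes cyclin G2, an unusual cyclin linked to cell cycle arrest (chromosome 4, 77157207 to 77170060), had changes of only 0.058 to 0.15 on the log2 scale. It ranged from 3.61 to 7.25 CPM in H460 siRIC polysomal RNA, against 3.11 to 6.40 CPM in H460 siNT polysomal RNA. In A549 total RNA its range was 7.22 to 12.01 CPM with siRIC and 8.33 to 12.3 CPM with siNT. The groups overlapped in all 4 comparisons.

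BCL6, a transcriptional repressor of the BTB zinc finger family (chromosome 3, 187721377 to 187745468), had 7.10, 6.44 and 6.60 CPM in H460 siRIC polysomal RNA, against 5.70, 5.09 and 4.45 CPM in H460 siNT polysomal RNA. The groups did not overlap, and the 3 siRIC libraries lay close together, but the share of all genes without overlap is not given. The log2 fold change was 0.41 ± 0.18, with an unadjusted p of 0.0388 and an adjusted p of 1 from edgeR. In H460 total RNA the levels were 11.5, 9.75 and 9.74 CPM with siRIC, against 11.3, 9.58 and 9.15 CPM with siNT, a change of 0.056 ± 0.17. In A549 the changes were 0.073 ± 0.26 and −0.022 ± 0.25 in polysomal and total RNA, and the groups overlapped. The log2 change of the polysomal-to-total ratio of BCL6 with siRIC in H460 was 0.35 ± 0.25 (adjusted p = 1.00, edgeR).

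TXNIP, an alpha-arrestin that binds thioredoxin and limits glucose uptake (chromosome 1, 145992435 to 145996579), varied more between the H460 libraries of one group than between siRNAs. TXNIP had 157, 53.7 and 213 CPM in H460 siRIC polysomal RNA, against 106, 55.6 and 199.6 CPM in H460 siNT polysomal RNA. Total RNA of H460 held 226, 72.7 and 188 CPM with siRIC, against 157, 76.4 and 161 CPM with siNT. Library 2 was the lowest in each of the 4 H460 groups, and the siRIC and siNT groups overlapped in both fractions. A549 cells had polysomal levels of 1.01, 0.863 and 1.04 CPM with siRIC, against 1.08, 0.834 and 1.54 CPM with siNT. The A549 total level was 0.765, 0.918 and 1.27 CPM with siRIC, against 0.697, 0.399 and 1.71 CPM with siNT. In A549 these levels rest on 11 to 39 counts per library, and the groups overlapped. The changes with siRIC were 0.22 ± 0.55 and 0.31 ± 0.55 in H460 polysomal and total RNA. Without a block their 95% intervals were −0.97 to 1.41 and −0.88 to 1.49. In A549 the changes were −0.22 ± 0.43 and 0.11 ± 0.43.

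**Figure D2:**
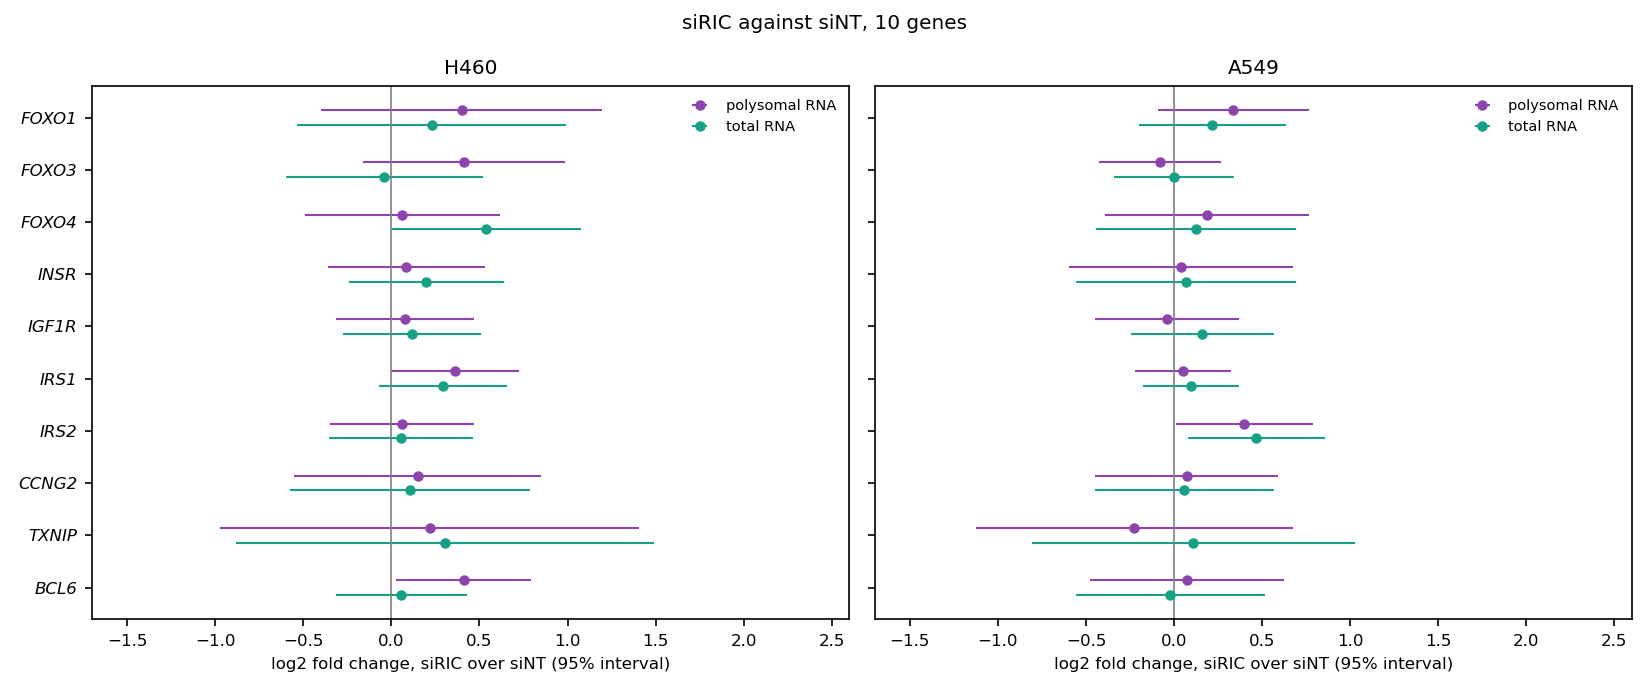
Log2 fold change of each gene, siRIC over siNT, with its 95% interval from the edgeR fit of a line's 12 libraries, in polysomal RNA (purple) and total RNA (green) of H460 and A549. None of the 10 genes was called, and the intervals run from −0.81 to 1.02 for TXNIP in A549 total RNA but only from −0.18 to 0.37 for IRS1.

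With both lines in a single fit, 0 of 10 genes were called for the mean response in polysomal RNA, where 0.133% of 16507 genes were called, and 0 of 10 in total RNA, where 0.127% were called. IRS1 and IRS2 had mean changes of 0.20 ± 0.10 and 0.23 ± 0.14 in polysomal RNA and 0.19 ± 0.10 and 0.26 ± 0.14 in total RNA (adjusted p-values of 0.788, 0.868, 1.00 and 1.00, edgeR). With the replicate number as a block, their unadjusted p-values were 0.0247 and 0.0470 in polysomal and 0.0261 and 0.0188 in total RNA (edgeR). FOXO1 had 0.0456 in polysomal RNA in that fit. None was called, and 1914 and 1224 of all genes were below 0.05 in polysomal and total RNA there. The response itself did not pass a test of difference between the lines for any of the 10 genes: 0 were called in polysomal RNA, where 0.00606% of genes were, and 0 in total RNA, where 0% were, with 382 of all genes below an unadjusted p of 0.05 and 7 called by DESeq2 in total RNA. The polysomal-to-total ratio was likewise called for 0 of 10 genes with siRIC in H460 and in A549, with 0% of all genes called in both lines. Unadjusted p-values below 0.05 were reached in those ratio tests by 0 of the 10 genes, and over all genes by 89 in H460 and 177 in A549. DESeq2 called 1 gene in each line.

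The receptor gene IGF1R and the adaptor gene IRS1 were lower in polysomal than in total RNA in both lines, relative to the scaling of the libraries. Per pair of libraries with the same number, the log2 polysomal-to-total ratio of IGF1R was −1.11, −0.87 and −0.84 in H460 siRIC cells and −1.04, −0.77 and −0.93 in H460 siNT cells. In A549 it was −1.18, −0.84 and −0.88 with siRIC and −0.54, −0.60 and −1.08 with siNT. For IRS1 the 12 ratios ran from −0.95 to −0.45. They ran from −1.59 to −0.074 for FOXO1, from −0.92 to −0.23 for IRS2 and from −0.83 to −0.19 for CCNG2. For FOXO3 the range was −0.99 to 0.060, for INSR −0.50 to 0.099 and for BCL6 −1.12 to 0.092. FOXO4 had −1.21 to 0.18 and TXNIP −0.56 to 0.74. How many of all genes lay below 0 in as many pairs was not counted.

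In siNT cells of H460, 4 of 10 genes were called lower in polysomal than in total RNA, where 10.5% of 14586 genes were called lower. These were BCL6 at −0.99 ± 0.18 (adjusted p = 0.00219), IGF1R at −0.91 ± 0.18 (adjusted p = 0.00394), IRS1 at −0.86 ± 0.17 (adjusted p = 0.00373) and IRS2 at −0.64 ± 0.19 (adjusted p = 0.0303) on the log2 scale (edgeR, n = 3 per group). In A549 siNT cells, 2 of 10 were called lower, IGF1R at −0.74 ± 0.19 (adjusted p = 0.00675) and IRS1 at −0.63 ± 0.13 (adjusted p = 0.00132), where 18.8% of 15396 genes were called lower. The median over the 10 genes was −0.65 in H460 and −0.44 in A549, against −0.022 and −0.043 over all genes. TXNIP stood at −0.13 ± 0.55 in H460 and 0.34 ± 0.43 in A549, was called in neither, and was the gene with the highest ratio in both lines.

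With the replicate number as a block, 7 of 10 genes were called lower in H460 polysomal RNA, where 17.7% of genes were, and 6 of 10 in A549, where 23.7% were. In H460 the block added FOXO1 at −1.04 ± 0.30 (adjusted p = 0.0176), FOXO3 at −0.71 ± 0.21 (adjusted p = 0.0211) and CCNG2 at −0.64 ± 0.18 (adjusted p = 0.0180). In A549 it added FOXO1 at −0.50 ± 0.17 (adjusted p = 0.0216), FOXO3 at −0.36 ± 0.13 (adjusted p = 0.0271), IRS2 at −0.41 ± 0.13 (adjusted p = 0.0141) and CCNG2 at −0.45 ± 0.16 (adjusted p = 0.0323). Without H460 siNT polysomal library 3, FOXO1, FOXO3 and CCNG2 were also called in H460 and the count was 7, where 13.1% of genes were called lower. Without siRIC polysomal library 3 it was 5, where 12% were. Without all libraries that stood apart it was 7, where 22.7% of genes were called lower, with FOXO1 at −1.46 (adjusted p = 6.02e-05), FOXO3 at −1.0001 (adjusted p = 3.59e-04) and CCNG2 at −0.92 (adjusted p = 0.00758) from edgeR. The H460 libraries left out were polysomal library 3 of both siRNAs. FOXO1, FOXO3 and CCNG2 were highest in these, so this fit is not separate support for their lower polysomal levels. In A549 the count was 5 without siNT total library 2, which added FOXO1, FOXO3 and BCL6, where 15.1% of genes were called lower. It was 3 without siRIC polysomal library 1, which added FOXO1 (adjusted p = 0.0482, edgeR), where 21.7% were. With only the groups compared it was 4 in A549, where 22.1% of genes were called lower, and 3 in H460, where 5.95% were. IRS2 in H460 lost its call in 6 of 12 fits that left out a library, those without siNT polysomal 1 or 2, siNT total 1, 2 or 3, or siRIC total 3, with adjusted p-values up to 0.107. It also lost it with no filter on low counts (adjusted p = 0.0696, edgeR) and with only the groups compared (adjusted p = 0.0605).

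FOXO1 ratios in H460 followed the library number: they were −1.09, −1.31 and −0.074 with siRIC and −1.22, −1.59 and −0.27 with siNT. The number 3 pair lay nearest to 0 under both siRNAs, and FOXO1 was highest in polysomal library 3. FOXO3 and CCNG2 were also highest in polysomal library 3 under both siRNAs in H460. BCL6 did not follow this, with ratios of −0.68, −0.58 and −0.55 with siRIC and −0.95, −0.88 and −1.001 with siNT in H460. FOXO3 in A549 passed the threshold when FOXO3B counts were added, at −0.60 ± 0.14 (adjusted p = 0.0029), against −0.38 ± 0.16 (adjusted p = 0.0757) without them.

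**Figure D3:**
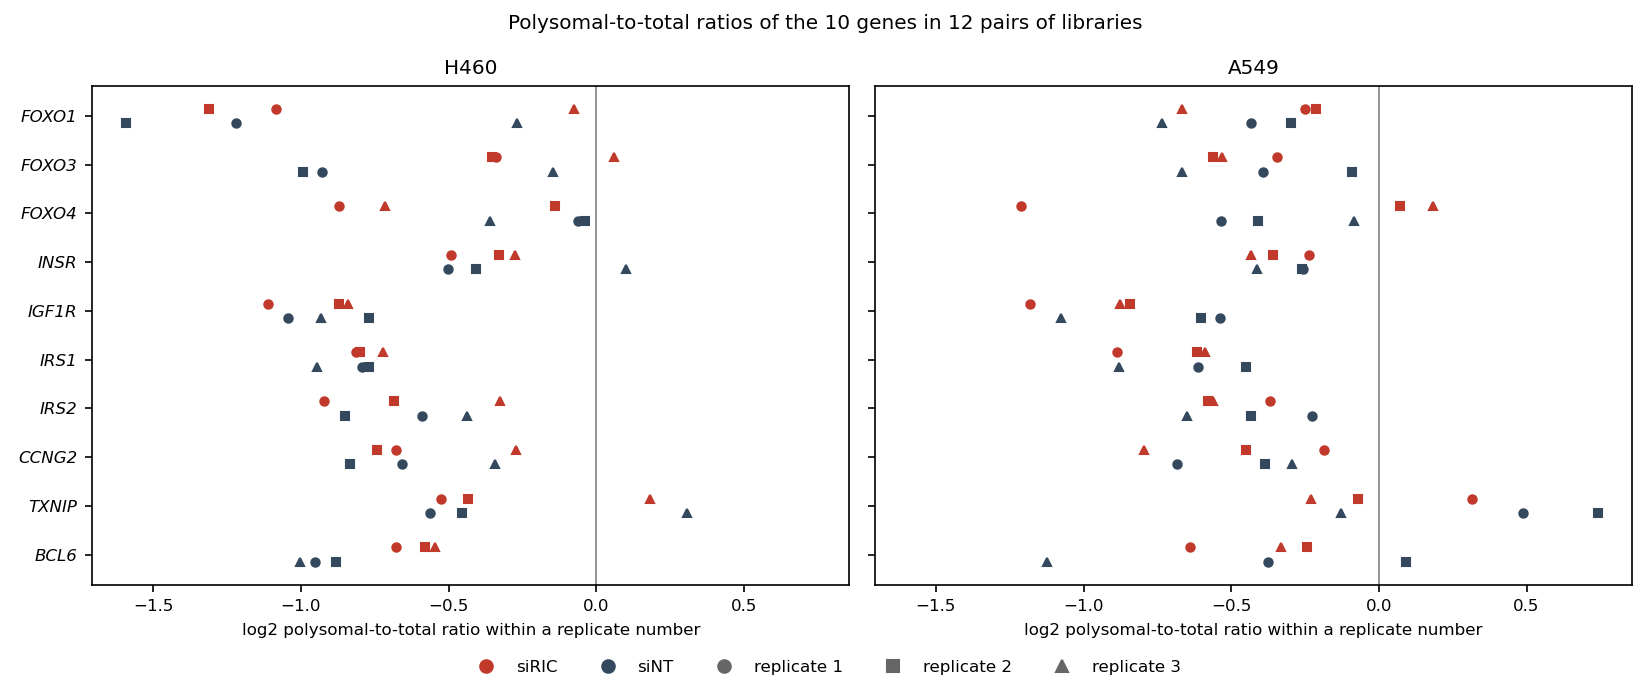
Log2 polysomal-to-total ratio of CPM (0.25 CPM added to both) for each gene and each pair of libraries with the same replicate number, siRIC in red above siNT in dark blue, in H460 and A549. All 12 ratios of IRS1 lie between −0.95 and −0.45, while TXNIP lies on both sides of 0.

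More of the 10 genes were called between the lines than between the siRNAs. Between H460 and A549 siNT cells, 7 of 10 genes were called in total RNA and 6 of 10 in polysomal RNA. Of these, 3 were called higher in H460 in total RNA, where 26.2% of 16507 genes were, and 4 were called lower, where 28.9% were. In polysomal RNA 3 were called higher, where 29.9% of genes were, and 3 lower, where 28.3% were. Counts of 3 and 4 among 10 genes are near these backgrounds, so the number called says nothing particular about the pathway. Each line is a single tumour, and no cause of a difference between them can be told from this design.

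The IRS adaptors went in opposite directions. IRS1 was lower in H460, at −1.17 ± 0.15 (adjusted p = 3.80e-07) in polysomal and −0.97 ± 0.14 (adjusted p = 4.52e-06) in total RNA (edgeR, 24 libraries). IRS2 was higher in H460, at 1.19 ± 0.20 (adjusted p = 1.91e-05) in polysomal and 1.38 ± 0.20 (adjusted p = 2.79e-06) in total RNA. Within a library, the ratio of IRS1 to IRS2 counts was 0.353 to 0.539 over the 12 H460 libraries, with a median of 0.452, and 1.27 to 2.35 over the 12 A549 libraries, with a median of 1.90. The ranges did not overlap. These ratios are not corrected for transcript length, so only their difference between lines can be read, not which adaptor is the more abundant.

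The FOXO factors also differed unequally. FOXO3 was lower in H460 at −1.51 ± 0.22 (adjusted p = 4.93e-06) in polysomal and −1.25 ± 0.22 (adjusted p = 3.66e-05) in total RNA (edgeR), with siNT totals of 7.54, 7.59 and 7.71 CPM in H460 against 18.8, 14.8 and 20.9 CPM in A549. FOXO4 was called lower in H460 total RNA, at −0.86 ± 0.28 (adjusted p = 0.0128), and stood at −0.67 ± 0.29 (adjusted p = 0.0504) in polysomal RNA. With RLE factors, with mitochondrially encoded genes left out and with DESeq2 the polysomal difference of FOXO4 passed, with adjusted p-values of 0.0416, 0.0397 and 0.0364. FOXO1 was not called, at 0.26 ± 0.31 (adjusted p = 0.485) in polysomal and 0.67 ± 0.29 (adjusted p = 0.0588) in total RNA. In total RNA FOXO1 was called higher in H460 in 4 alternatives, at 0.67 (adjusted p = 0.00201) without the libraries that stood apart, and with adjusted p-values of 0.0224 with no filter, 0.0365 with mitochondrially encoded genes left out and 0.00426 with only the groups compared (edgeR). In polysomal RNA its difference was −0.27 (adjusted p = 0.277) without the libraries that stood apart. The count ratio of FOXO1 to FOXO3, again not corrected for length, was 0.672 to 1.48 over the H460 libraries and 0.223 to 0.398 over the A549 libraries, with no overlap.

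IGF1R was lower in H460, at −0.998 ± 0.19 (adjusted p = 1.36e-04) in polysomal and −0.86 ± 0.19 (adjusted p = 6.71e-04) in total RNA, whereas INSR at −0.51 ± 0.29 (adjusted p = 0.137) and −0.57 ± 0.28 (adjusted p = 0.0920) was not called (edgeR). BCL6 was higher in H460, at 0.64 ± 0.24 (adjusted p = 0.0242) in polysomal and 1.10 ± 0.23 (adjusted p = 3.20e-04) in total RNA. Its polysomal call was lost in 4 of 24 fits that left out a library, those without A549 siNT polysomal 2 or 3 or H460 siNT polysomal 1 or 2, with adjusted p-values up to 0.115. It was also lost with no filter on low counts (adjusted p = 0.0929, edgeR) and with only the groups compared (adjusted p = 0.118). CCNG2 was not called, at −0.66 ± 0.30 (adjusted p = 0.0684) in polysomal and −0.55 ± 0.30 (adjusted p = 0.117) in total RNA. Without the libraries that stood apart it was called lower in H460, at −0.99 (adjusted p = 0.00222) in polysomal and −0.55 (adjusted p = 0.0258) in total RNA (edgeR). With only the groups compared, CCNG2 and INSR were both called lower in H460 total RNA, with adjusted p-values of 0.0183 and 0.0204, and with no filter CCNG2 was called in polysomal RNA (adjusted p = 0.0326). The polysomal-to-total ratio in siNT cells was called as different between the lines for 0 of 10 genes, where 0% of all genes were called. The smallest unadjusted p among the 10 in that test was 0.182, for BCL6, while 823 of all genes were below 0.05 and DESeq2 called 9.

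**Figure D4:**
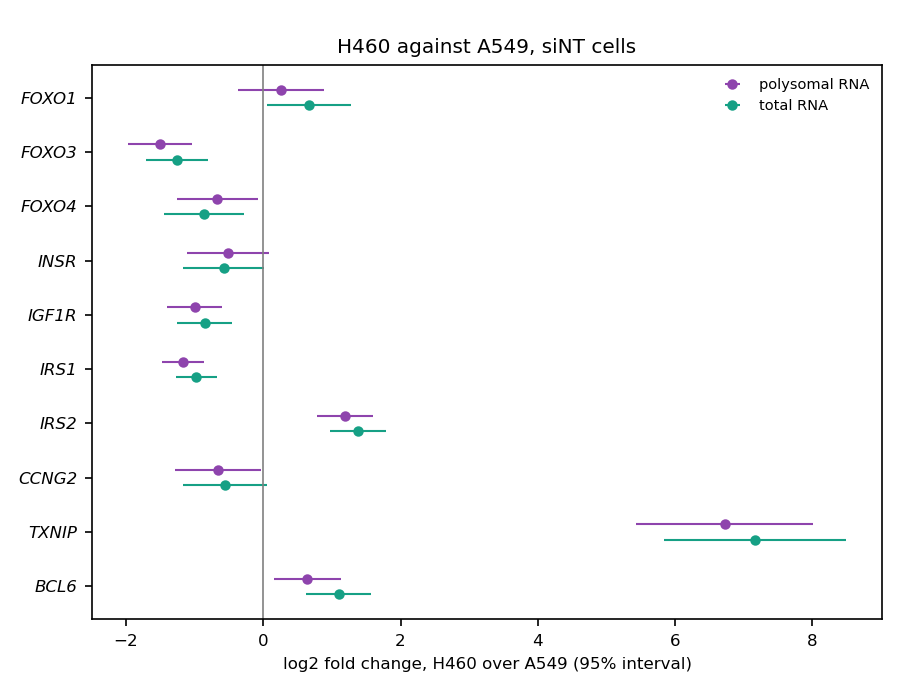
Log2 fold change of each gene between siNT cells, H460 over A549, with its 95% interval from the edgeR fit of all 24 libraries, in polysomal RNA (purple) and total RNA (green). TXNIP, at 6.72 and 7.16, stands far to the right of the other 9 genes, which lie between −1.51 and 1.38.

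TXNIP was higher in H460 by 6.72 ± 0.62 (adjusted p = 3.51e-09) log2 units in polysomal and 7.16 ± 0.64 (adjusted p = 1.86e-09) in total RNA, about 105-fold and 143-fold (edgeR). Its mean level in siNT total RNA was 132 ± 47.9 CPM in H460 and 0.934 ± 0.685 CPM in A549 (SD, n = 3 each). ARRDC4, an alpha-arrestin that like TXNIP is induced through the glucose sensor MondoA, was higher in H460 as well, by 2.83 ± 0.41 (adjusted p = 3.19e-06) in polysomal and 3.00 ± 0.40 (adjusted p = 1.16e-06) in total RNA. ARRDC4 had 12.1, 8.95 and 22.8 CPM in H460 siRIC polysomal RNA, against 10.1, 5.53 and 18.4 CPM in H460 siNT polysomal RNA. In H460 total RNA it had 21.7, 11.8 and 24.3 CPM with siRIC, against 16.9, 11.5 and 19.6 CPM with siNT. Library 2 was again the lowest of all 4 H460 groups, as for TXNIP, and every A549 library held between 1.34 and 2.63 CPM. ARRDC4 was named after its values were seen.

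**Figure D5:**
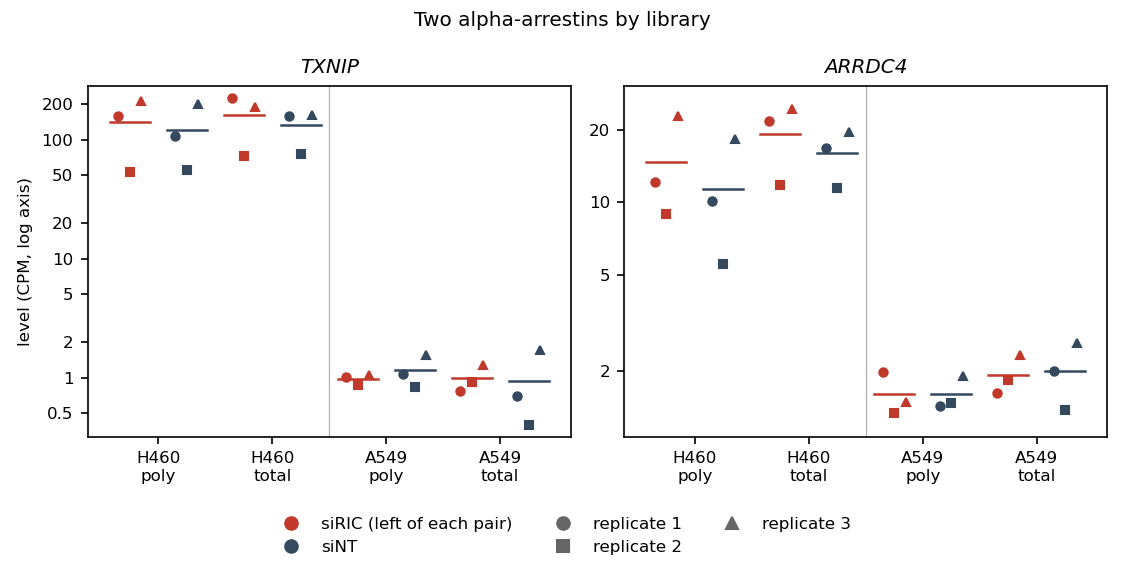
Levels of TXNIP and ARRDC4 in CPM, on log axes, in the 24 libraries, siRIC in red left of siNT in dark blue, with a marker shape for each replicate number and a bar for the mean of 3. Both genes are higher in every H460 library than in every A549 library, and the square of library 2 is the lowest point in each H460 group.

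The promoters of this pair are shown because TXNIP and ARRDC4 differed together between the lines. Both windows run from 250 bases before the annotated start to 50 after it, read 5′ to 3′ along the gene's strand from RefSeq on GRCh38.p14, at chr1:145996530-145996829 on the minus strand for TXNIP and chr15:97960453-97960752 on the plus strand for ARRDC4. Capitals mark matches, on either strand, to the FOXO motif GTAAACA and to CACGNG, the core that MondoA and its partner MLX recognize in paired E-boxes.
TXNIP: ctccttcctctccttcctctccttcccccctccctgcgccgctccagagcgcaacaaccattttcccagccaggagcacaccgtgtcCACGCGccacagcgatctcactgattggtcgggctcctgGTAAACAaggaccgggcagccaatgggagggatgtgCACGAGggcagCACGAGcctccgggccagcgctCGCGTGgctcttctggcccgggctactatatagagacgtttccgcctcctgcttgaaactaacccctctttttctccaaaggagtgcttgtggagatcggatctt
ARRDC4: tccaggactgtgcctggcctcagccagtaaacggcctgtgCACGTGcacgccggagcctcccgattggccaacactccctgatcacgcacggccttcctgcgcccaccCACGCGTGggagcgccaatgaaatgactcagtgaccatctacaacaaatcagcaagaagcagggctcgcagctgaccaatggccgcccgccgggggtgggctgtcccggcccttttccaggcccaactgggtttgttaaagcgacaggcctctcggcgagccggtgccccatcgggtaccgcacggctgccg
In the TXNIP window GTAAACA starts 124 bases before the start of the gene, and CACGNG matches start 163, 88, 77 and 55 bases before it. The matches at 88 and 77 have the same orientation and are separated by 5 bases. This arrangement was found in 20 of 35116 promoter windows (0.0570%) and in no other member. Pairs of opposite orientation were not searched for. In the ARRDC4 window CACGNG matches start 210, 142 and 140 bases before the gene, the last 2 overlapping, and GTAAACA is absent. Of the 10 genes, 2 (TXNIP and FOXO4) had GTAAACA in at least 1 promoter window, and 9 had CACGNG. Over all windows, 3.42% held GTAAACA and 30.5% held CACGNG. The members are counted per gene and the shares are per window, so they cannot be set against each other directly. FOXO3 has 4 windows, and TXNIP and BCL6 have 2 each. A match describes letters in the window and does not show binding in these cells.

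Other genes of the pathway were followed in lists besides the 10, and few passed the test after RICTOR knockdown. Of 12 insulin and IGF ligands, receptors and binding proteins, 8 were tested in A549. In polysomal RNA 1 was called, where 0.676% of all genes were. This was IGFBP3, the most abundant IGF carrier protein in serum, which fell to 435, 422 and 454 CPM in A549 siRIC polysomal RNA, against 780.3, 846 and 687 CPM in A549 siNT polysomal RNA. All siRIC libraries lay below all siNT libraries, with a log2 fold change of −0.81 ± 0.13 (adjusted p = 0.00947) from edgeR. The call was lost without 1 library, A549 siNT polysomal 1 (adjusted p = 0.0521), and when the 6 libraries compared were fitted alone (adjusted p = 0.105). In H460, 671, 858 and 864 CPM with siRIC lay below 1062, 1715 and 1466 CPM with siNT in polysomal RNA, a change of −0.83 ± 0.22 (adjusted p = 1) that was not called. Over both lines IGFBP3 was called lower at −0.82 ± 0.12 (adjusted p = 0.00132) in polysomal and −0.68 ± 0.12 (adjusted p = 0.0167) in total RNA. Of all genes, 0.133% and 0.127% were called in these means. The polysomal mean call was lost when only the groups compared were fitted (adjusted p = 0.199). In A549 total RNA IGFBP3 was not called, at −0.58 ± 0.13 (adjusted p = 0.0806). There it passed in 4 of 8 alternatives, namely the block at −0.57 ± 0.11 (adjusted p = 0.0128, edgeR), DESeq2, only the groups compared and leaving out the libraries that stood apart, and in 1 of 12 fits that left out a library. The mean call in total RNA was lost in 7 of 24 fits that left out a library, those without A549 siRIC total 1 or 2, A549 siNT total 2, H460 siRIC total 1 or 3, or H460 siNT total 2 or 3, with adjusted p-values up to 0.0960.

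Cyclin G1, encoded by CCNG1 and known as a p53 target, fell in A549, where its relative CCNG2 did not pass the test. CCNG1 had 63.4, 47.9 and 44.7 CPM in A549 siRIC polysomal RNA, against 127, 111 and 129 CPM in A549 siNT polysomal RNA. All siRIC libraries lay below all siNT libraries in both lines and both fractions. The log2 fold changes in A549 were −1.23 ± 0.16 (adjusted p = 0.00114) in polysomal and −1.40 ± 0.16 (adjusted p = 8.18e-04) in total RNA (edgeR). In H460 they were −0.69 ± 0.22 (adjusted p = 1) and −0.61 ± 0.22 (adjusted p = 1). Of 3 cyclins of the G and I type listed, 2 were tested and CCNG1 was the 1 called. In A549, 0.676% of all genes were called in polysomal and 0.325% in total RNA. CCNG1 kept its A549 calls in all fits that left out a library.

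No member of 5 other lists was called with siRIC in either fraction of either line, nor in the mean of both lines, by edgeR. Of 43 further FOXO targets, 32 were tested in A549 and 30 in H460. Among them KLF2, a FOXO1 target in lymphocytes, had mean changes over both lines of 0.53 ± 0.15 (adjusted p = 0.314) in polysomal and 0.43 ± 0.16 (adjusted p = 0.884) in total RNA, and BCL2L11, which encodes the proapoptotic protein BIM, had −0.30 ± 0.15 (adjusted p = 0.787) and −0.39 ± 0.14 (adjusted p = 0.919). The medians of these targets were −0.17 and −0.10 in A549 polysomal and total RNA and 0.10 and 0.059 in H460. Their changes were above 0 for 7 and 10 of 32 in A549 polysomal and total RNA, unlike the lean of the 10 genes. In H460 they were above 0 for 23 of 30 in both fractions. Of the 16 FOXO relatives and cofactors, the deacetylase SIRT1 stood at 0.37 ± 0.16 and 0.35 ± 0.16 over both lines, and the ubiquitin ligase subunit SKP2 at −0.27 ± 0.13 and −0.064 ± 0.13. Of 25 receptor adaptors and inhibitors, 23 were tested, with DOK1 at 0.29 ± 0.16 and the phosphatase gene PTPN11 at 0.16 ± 0.14 in polysomal RNA. Of 10 genes of the alpha-arrestin and MondoA list, 9 were tested, with TXN, which encodes thioredoxin, at −0.24 ± 0.11 in total and ARRDC1 at 0.31 ± 0.17 in polysomal RNA. Of 10 corepressors and paralogs of BCL6, 8 were tested, with HDAC9 at −1.25 ± 0.55 in polysomal RNA, on 0 to 31 counts per library there, and NCOR1 at 0.21 ± 0.12 in total RNA.

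Between the lines, 6 of the 10 tested ligands, receptors and binding proteins were called higher in H460 siNT polysomal RNA and 3 lower, and 4 of 9 tested genes of the alpha-arrestin list were higher and 0 lower, where 29.9% of all genes were called higher and 28.3% lower. Of the 34 tested FOXO targets, 6 were called higher in H460 polysomal RNA and 18 lower, with a median of −0.57 against 0.029 over all genes. Of 23 receptor adaptors and inhibitors, 5 were higher and 12 lower, and the median was −0.63. In the comparison of fractions, 8 of these 23 were called lower in H460 polysomal than total RNA with 0 higher, and 5 lower with 1 higher in A549, where 10.5% of all genes were called lower in H460 and 18.8% in A549.

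The genes most like each member were found by the root mean square difference between centred log2 CPM over the 8 group means, among 10568 genes averaging 5 CPM or more. Their distances, in log2 units, were smallest for CCNG2, with ZNF384 and LCOR (0.041 and 0.049), INSR, with ARFGEF1 and UMAD1 (0.047 and 0.054), and IRS1, with ZBTB4 and ULK2 (0.055 and 0.071). IGF1R was followed by NCOA1 and ZNF592 (0.056 and 0.076), FOXO3 by RNF166 and MOSPD3 (0.057 and 0.10), BCL6 by BBLN and SHC1 (0.074 and 0.090) and FOXO4 by HACE1 and TAB2 (0.075 and 0.084). FOXO1 had SELENON and TNRC18 (0.11 and 0.11), IRS2 had ITPRID2 and LNPEP (0.12 and 0.13) and TXNIP had ABI3BP and FENDRR (0.19 and 0.24). The 8 means of TXNIP had a spread of 3.45 log2 units and those of INSR only 0.28.

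By group means, FOXO3, FOXO4, INSR, IGF1R, IRS1 and CCNG2 were highest in A549 total RNA, and FOXO1, IRS2, TXNIP and BCL6 in H460 total RNA. IRS1 descended from 81.1 ± 2.69 CPM in A549 siRIC total RNA through 76.3 ± 6.74 in A549 siNT total, 50.2 ± 6.01 and 48.5 ± 3.07 in A549 siRIC and siNT polysomal, 47.4 ± 4.27 and 38.9 ± 5.25 in H460 siRIC and siNT total, to 27.6 ± 3.47 and 21.6 ± 1.48 CPM in H460 siRIC and siNT polysomal RNA (SD, n = 3). Neighbours in that order overlapped except A549 total against A549 polysomal RNA, H460 total against H460 polysomal RNA, and siRIC against siNT in H460 polysomal RNA. For IRS2 the order began with 93.2 ± 3.26 and 90.1 ± 6.13 CPM in H460 siRIC and siNT total RNA, followed by 60.7 ± 14.9 and 58.4 ± 6.08 in H460 polysomal RNA, 47.7 ± 10.8 and 34.6 ± 4.77 in A549 total RNA, and 33.6 ± 7.30 and 25.6 ± 3.75 in A549 polysomal RNA. For IRS2 neighbours separated without overlap only between H460 total and H460 polysomal RNA. FOXO1 separated at the top, with H460 siRIC total above H460 siNT total and H460 siNT total above A549 siRIC total RNA, and FOXO3 separated A549 total from A549 polysomal RNA and A549 polysomal from H460 total RNA. IGF1R separated A549 siNT total from H460 siRIC total RNA and H460 siNT total from H460 siRIC polysomal RNA. BCL6 separated H460 total, H460 siRIC polysomal and H460 siNT polysomal RNA, and FOXO4 separated A549 siNT polysomal from H460 siNT total RNA. TXNIP separated the lines alone, and no neighbours of INSR or CCNG2 were separate. How many of all genes separated in these ways is not given here.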

How the data were processed

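Polysomal and total RNA of A549 and H460 cells was sequenced after transfection with siRIC or siNT. The deposited values are estimated counts per gene, which the authors made with salmon, per the name of the deposited table, and did not normalize; 9.40% of values are not whole. Per the submitters' processing notes, bcl2fastq 2.20 and build GRCh38 were used. Per the labels' protocols, a stranded total RNA kit with ribosomal depletion was used, while the molecule label is polyA RNA.

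Counts were rounded and tested with edgeR 4.0.16 in R 4.3.3 (quasi-likelihood, TMM factors, expression filter, Benjamini-Hochberg), in each line (12 libraries, 8 residual degrees of freedom) and in both (24 libraries, 16). SE is the absolute log2 fold change divided by the root of F. CPM was divided by TMM factors, which were lower in H460 polysomal (0.8245 to 0.9622) than in H460 total libraries (0.9558 to 1.009). Alternatives were the replicate number as a block, RLE factors, no filter, mitochondrially encoded genes left out, DESeq2 1.42.0, only the groups compared, leaving out libraries and, chosen after seeing the data, FOXO3B counts added to FOXO3 and the number in the library name as a block between lines. What that number stands for is not in the labels.

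The replicate number marks a batch per the labels, which gives the pairing. Deviations from group means correlated at 0.0207 to 0.259 between same-numbered A549 libraries and 0.0464 to 0.670 in H460, against at most 0.0225 and 0.126 for unlike numbers. Named were the 10 genes, RICTOR, list genes called with siRIC or otherwise the 2 with the smallest p, and the 2 genes of most similar pattern. The members and lists were chosen with earlier results of these data known. The result of 1 list is not reported here. Of 60666 gene IDs, 60437 had a symbol.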

Additional observations from a re-analysis of the deposited data

How the results depend on the processing

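Of 3684 alternative values for 150 changes of the 10 genes, 0 called values reversed, 14 called values lost their call and 52 values gained one, and 212 uncalled values changed sign. The count of genes called with siRIC stayed at 0 of 10 in every comparison and setting run, including each fit without a library. For polysomal over total RNA in siNT cells, 4 of the 10 genes were called lower in H460, where 10.5% of all genes were. The count was 7 with the replicate number as a block (17.7% of all genes) and 7 without the libraries that stood apart (22.7%). Without a library it was 3 to 7 (5.77% to 13.1%). A549 had 2 called lower (18.8% of all genes), 6 with the block (23.7%) and 4 with only the groups compared (22.1%). Without a library A549 had 2 to 5 (14.2% to 21.7%). Between the lines, 7 genes were called in total and 6 in polysomal RNA. Without a library these counts were 7 to 8 and 5 to 8, where 48.9% to 58.6% and 52.1% to 60.2% of all genes were called. Only the groups compared gave 10 in total RNA, where 70.6% of all genes were called against 55.1%, and 5 in polysomal RNA, where 47.1% were against 58.2%. Leaving out the libraries that stood apart gave 9, where 65.9% were, and 7, where 64.7% were. FOXO1 gained a call in total RNA without H460 siRIC polysomal 2 or 3 or siNT polysomal 3, INSR in total RNA without A549 siNT total 2, CCNG2 in polysomal RNA without H460 siRIC or siNT polysomal 3, and FOXO4 in polysomal RNA in 9 fits without a library. The cause was not tested. The block changed no other call of the 10 genes. The replicate number was fitted within each line, and no such fit was made of the siNT total and polysomal differences between H460 and A549. Numbers in the library names, of which 4 and 6 occur in both lines, were used there as a block in an alternative chosen after seeing the data. It called 9 genes in total and 7 in polysomal RNA, where 59.0% and 61.4% of all genes were called, adding INSR (adjusted p = 0.0376) and CCNG2 (0.0142) in total and CCNG2 (0.00401) in polysomal RNA (edgeR).

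Over all genes, the block gave 258 calls against 50 in A549 total RNA with siRIC, 540 against 104 in A549 polysomal RNA, 80 against 21 and 115 against 22 in the means of total and polysomal RNA, and 5187 against 3347 for H460 polysomal over total RNA. Without the libraries that stood apart these counts were 172, 456, 117, 171 and 7031, with only the groups compared 152, 35, 196, 0 and 2146. No filter gave 257, 413, 71 and 88 for the first 4, and DESeq2 164, 346, 62 and 98. No filter also gave 59 calls against 0 for the A549 ratio with siRIC and 63 against 0 for the ratio between lines, which had 138 without the libraries that stood apart. It gave 52 against 0 and 47 against 1 for the response difference between lines in total and polysomal RNA, and 7, 3 and 3 against 0 for H460 polysomal RNA, total RNA and their ratio with siRIC. With 3 libraries a group, low genes such as TXNIP in A549 (11 to 39 counts) limit precision.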

Other observations

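FOXO6, the family member best known from brain, was at 0.343, 0.0913 and 0.203 CPM in H460 siRIC polysomal RNA, against 0.439, 0.509 and 0.0542 CPM in H460 siNT polysomal RNA, which are 1 to 8 counts per library. In A549 polysomal RNA it reached 0.369, 1.29 and 1.34 CPM with siRIC, against 0.971, 1.06 and 0.543 CPM with siNT. The intronless copy FOXO1B had at most 7 counts in any library, and it was listed at 0 in each H460 siNT polysomal library.

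FOXO3B differed between fractions in both lines. It had 0.801, 1.55 and 2.69 CPM in H460 siRIC polysomal RNA, against 4.65, 4.07 and 4.30 CPM in H460 siRIC total RNA. In A549 siNT cells it had 3.81, 5.15 and 2.22 CPM in polysomal RNA, against 8.04, 9.75 and 8.36 CPM in total RNA. The polysomal libraries lay below all total libraries in both comparisons, and no test of FOXO3B alone was made.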
